A study of Homo sapiens with 9 samples.

Results

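Expression of 44 genes of mitosis and the G2/M transition was followed in MDA-MB-231, an established line of triple-negative breast cancer, after exposure to 2 inducers of ferroptosis, the iron-dependent death by lipid peroxidation. The genes were taken by name as known members of this group, and all 44 were found among the 58735 genes of each library. Messenger RNA, selected from total RNA by its poly(A) tail, was sequenced in 9 libraries, 3 each from cells given DMSO (vehicle), cells that survived increasing amounts of erastin (erastin-R) and cells that survived increasing amounts of RSL3 (RSL3-R). Erastin blocks the cystine importer and so starves the cell of glutathione, while RSL3 inhibits the glutathione peroxidase GPX4 directly. All 3 groups derive from the same line with no engineered change of genotype named in the labels. The labels give neither doses nor times, nor whether the drug was still present when the RNA was taken, and the survivors are the populations left after treatment.

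Cells enter mitosis when CDK1, bound to cyclin B, becomes active. The proteins that build the spindle, attach and separate chromosomes and divide the cell are made mostly in G2 and M phase, under FOXM1 and the MYBL2-MuvB complex, and the DREAM complex represses the same genes in resting cells. Their joint level in a culture is commonly used as a measure of proliferation. In RNA from a whole culture, fewer cells in G2 and M phase and less of these transcripts per cell cannot be told apart.

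Total counts ran from 15405102 to 17273464 per library. The markers of the line were present in every library, with VIM at 20507 to 26549 counts and AXL at 12462 to 20332 counts, and the oestrogen receptor gene ESR1 had at most 12 counts. Of the markers of other cells, CD3E, ALB and PTPRC had at most 4, 6 and 24 counts, and PECAM1 had 154 to 177 counts in vehicle, 20 to 36 in erastin-R and 199 to 222 in RSL3-R libraries. The 4 together summed to 164 to 182, 24 to 47 and 226 to 252 counts in that order, and their part in the results was not tested. Erastin-R replicate 1 stood apart from the other erastin-R libraries. It had the highest value of its group for 33 of the 44 genes, and 7.95% of its counts were mitochondrial, against 5.55% and 5.84% in the others. This share was 7.97% to 8.93% in vehicle and 9.52% to 10.2% in RSL3-R libraries, and its part in the results was not tested. Where leaving it out moved the value of a gene by over 1.5 times, the value without it is given too. This held for 7 of the 44 genes in erastin-R against vehicle cells and for 8 in RSL3-R against erastin-R cells.

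Promoter sequence was examined because these genes are known to share 2 short elements, the cell cycle genes homology region (CHR), bound by the MuvB core of DREAM and MYBL2-MuvB, and the CCAAT box, bound by NF-Y. RefSeq promoters (GRCh38.p14, 250 bases before to 50 bases after the start of a gene) were found for 37 of the 44 genes. The exact letters TTTGAA for the CHR element and CCAAT for the CCAAT box were searched on both strands. The 5 promoters below were chosen for the size of the change of their genes, which is given further on. CDC20 and PLK1 were among the most reduced genes in RSL3-R cells and hold both elements. HMMR and ECT2 were the least reduced genes in RSL3-R cells and also hold both. KIF20A had the largest change in RSL3-R cells and holds CCAAT boxes without an exact TTTGAA. The order was different in erastin-R cells, where the log2 fold change was -0.44 for CDC20 and -1.12 for HMMR. Capitals mark the matches, with TTCAAA and ATTGG being the same elements on the other strand. RefSeq start sites can differ from the gene starts in the deposited files. The sequences lie at chr1:43358731-43359030, plus strand for CDC20, chr16:23678639-23678938, plus strand for PLK1, chr5:163460382-163460681, plus strand for HMMR, chr3:172750476-172750775, plus strand for ECT2 and chr5:138178862-138179161, plus strand for KIF20A.
CDC20: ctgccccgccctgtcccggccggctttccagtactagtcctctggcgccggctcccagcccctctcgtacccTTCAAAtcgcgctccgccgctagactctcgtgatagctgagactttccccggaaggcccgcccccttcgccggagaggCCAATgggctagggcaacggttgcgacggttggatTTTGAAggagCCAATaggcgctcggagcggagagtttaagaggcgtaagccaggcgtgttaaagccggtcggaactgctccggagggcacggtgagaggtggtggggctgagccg
PLK1: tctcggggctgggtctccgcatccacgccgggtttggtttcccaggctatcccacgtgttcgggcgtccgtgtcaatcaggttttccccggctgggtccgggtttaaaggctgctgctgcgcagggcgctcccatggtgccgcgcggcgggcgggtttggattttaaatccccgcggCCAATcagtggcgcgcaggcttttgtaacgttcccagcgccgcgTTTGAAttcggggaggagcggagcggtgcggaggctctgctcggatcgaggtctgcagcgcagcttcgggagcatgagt
HMMR: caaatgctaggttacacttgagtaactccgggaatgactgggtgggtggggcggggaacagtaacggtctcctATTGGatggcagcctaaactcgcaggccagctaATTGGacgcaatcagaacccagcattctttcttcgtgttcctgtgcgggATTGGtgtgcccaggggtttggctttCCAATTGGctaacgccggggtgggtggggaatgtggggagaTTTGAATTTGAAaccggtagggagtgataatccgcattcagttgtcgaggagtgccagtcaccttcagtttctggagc
ECT2: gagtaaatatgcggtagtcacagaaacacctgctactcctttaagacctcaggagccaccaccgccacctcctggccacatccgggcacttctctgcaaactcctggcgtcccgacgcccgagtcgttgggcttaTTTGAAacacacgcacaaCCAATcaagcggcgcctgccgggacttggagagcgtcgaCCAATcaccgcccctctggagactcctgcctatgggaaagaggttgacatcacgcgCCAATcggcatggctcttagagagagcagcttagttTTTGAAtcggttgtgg
KIF20A: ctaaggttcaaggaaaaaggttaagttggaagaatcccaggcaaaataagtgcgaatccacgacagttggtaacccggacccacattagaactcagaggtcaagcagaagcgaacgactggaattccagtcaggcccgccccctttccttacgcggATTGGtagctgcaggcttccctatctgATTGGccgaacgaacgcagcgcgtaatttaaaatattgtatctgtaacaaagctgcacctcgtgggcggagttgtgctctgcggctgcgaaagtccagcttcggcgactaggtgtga

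In the PLK1 promoter the CCAAT box begins 73 bases and the CHR element 29 bases before the start site. The HMMR promoter holds 5 CCAAT boxes and 2 CHR elements that stand side by side, at 28 and 22 bases before the start. In the pair of CCAAT boxes nearest the HMMR start the matches lie on opposite strands and overlap. In ECT2 the CHR elements lie 115 bases before and 34 bases after the start, with CCAAT boxes at 97, 58 and 2 bases before it. An exact TTTGAA was found in 27 of the 37 promoters (73.0%), against 15.6% of all promoters, 1 for each of 27305 genes. The CCAAT box was found in 30 of the 37 (81.1%), against 35.6% of all. Both elements stood together in 22 promoters (59.5%), against 6.15% of all. Among 20 promoters of genes of G1/S and DNA replication, 1 (5.0%) held TTTGAA and 13 (65.0%) held CCAAT. Of the genes with several promoters in RefSeq, 5 in this group, the promoter at the lowest coordinate was used, and counting a match in any promoter of a gene left the group at 27 and 30 while all genes reached 18.2% and 39.7%. The median log2 fold change in RSL3-R cells was -1.32 for the 27 genes with TTTGAA and -1.31 for the 10 without. In erastin-R cells it was -0.56 and -0.37. Split by the CCAAT box, the medians were -1.31 for the 30 genes with it and -1.32 for the 7 without in RSL3-R cells, and -0.47 and -0.85 in erastin-R cells. These splits were not tested. They rest on the exact letters alone, and other forms of the elements were not searched. A match of letters is a description and not a shown binding site.

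**Figure D1:**
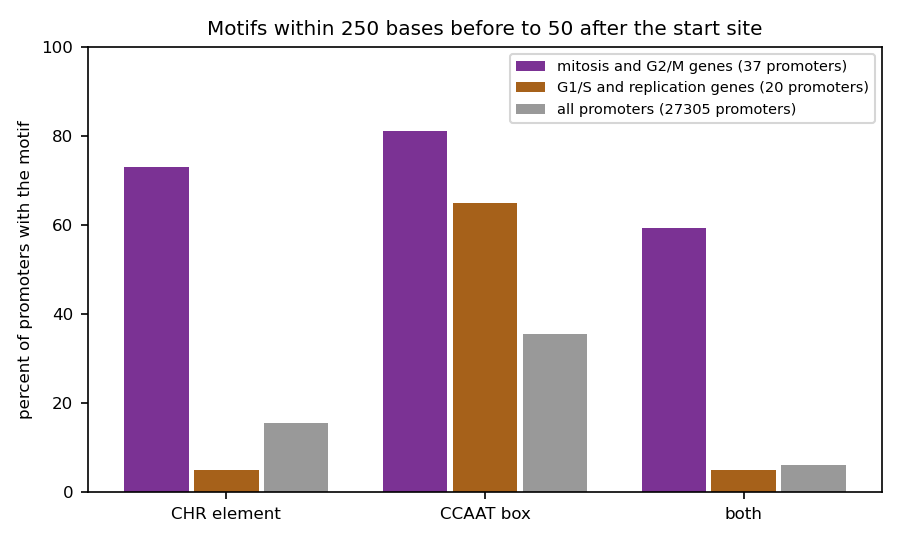
Percent of promoters (y axis) that hold TTTGAA (CHR element), CCAAT or both on either strand, for the mitosis and G2/M genes (37 promoters), genes of G1/S and replication (20 promoters) and all RefSeq promoters (27305). TTTGAA was in 73.0%, 5.0% and 15.6% of the promoters in that order.

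Expression of most of these genes was lower under both drugs, and further lower in RSL3-R than in erastin-R cells. Levels are given as CPM, counts scaled to a common library size after edgeR's TMM normalization. Together the 44 genes held 9613 ± 369 CPM (SD, n = 3) in vehicle libraries, 6690 ± 624 CPM in erastin-R libraries and 4009 ± 87.8 CPM in RSL3-R libraries. Their share of all counts was 0.930% to 0.985%, 0.637% to 0.731% and 0.394% to 0.406% in the same order, so the ranges of the groups did not overlap. Each gene was tested with edgeR's quasi-likelihood test across 16188 genes, and a gene is called higher or lower at a Benjamini-Hochberg adjusted p under 0.05.

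In RSL3-R cells all 44 genes were called lower than in vehicle cells, against 24.9% of all genes tested, and 0 were called higher, against 23.8%. DESeq2 and the other alternatives also called none of them higher, and with edgeR none had a positive log2 fold change, so none was higher at an unadjusted p under 0.05 either. The 3 RSL3-R libraries lay below all 3 vehicle libraries for 44 of the 44 genes (31.4% of all genes). A log2 fold change of -1 or lower, at the same adjusted p, was reached by 38 (4.08% of all genes). The median log2 fold change was -1.31, and that of all genes tested was 0.005. In erastin-R cells 34 genes were called lower (26.8% of all genes tested) and 1, ECT2, was called higher (27.1%). The other 9 were not called, namely CDC25C, AURKB, BUB1, TTK, MAD2L1, NUF2, KIF2C, PRC1 and PTTG1. All 3 erastin-R libraries lay below the vehicle libraries for 35 genes (29.1% of all genes). A log2 fold change of -1 or lower was reached by 4 (6.66% of all genes), FOXM1, NUSAP1, HMMR and KIF11. The median was -0.49, against -0.004 over all genes. Without erastin-R replicate 1, edgeR called 40 genes lower, 9 of them by at least 1 on the log2 scale, and the median was -0.55. The share of all genes called in that fit is not given, so these counts cannot be set against the shares above. Both comparisons use the same vehicle libraries.

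**Figure D2:**
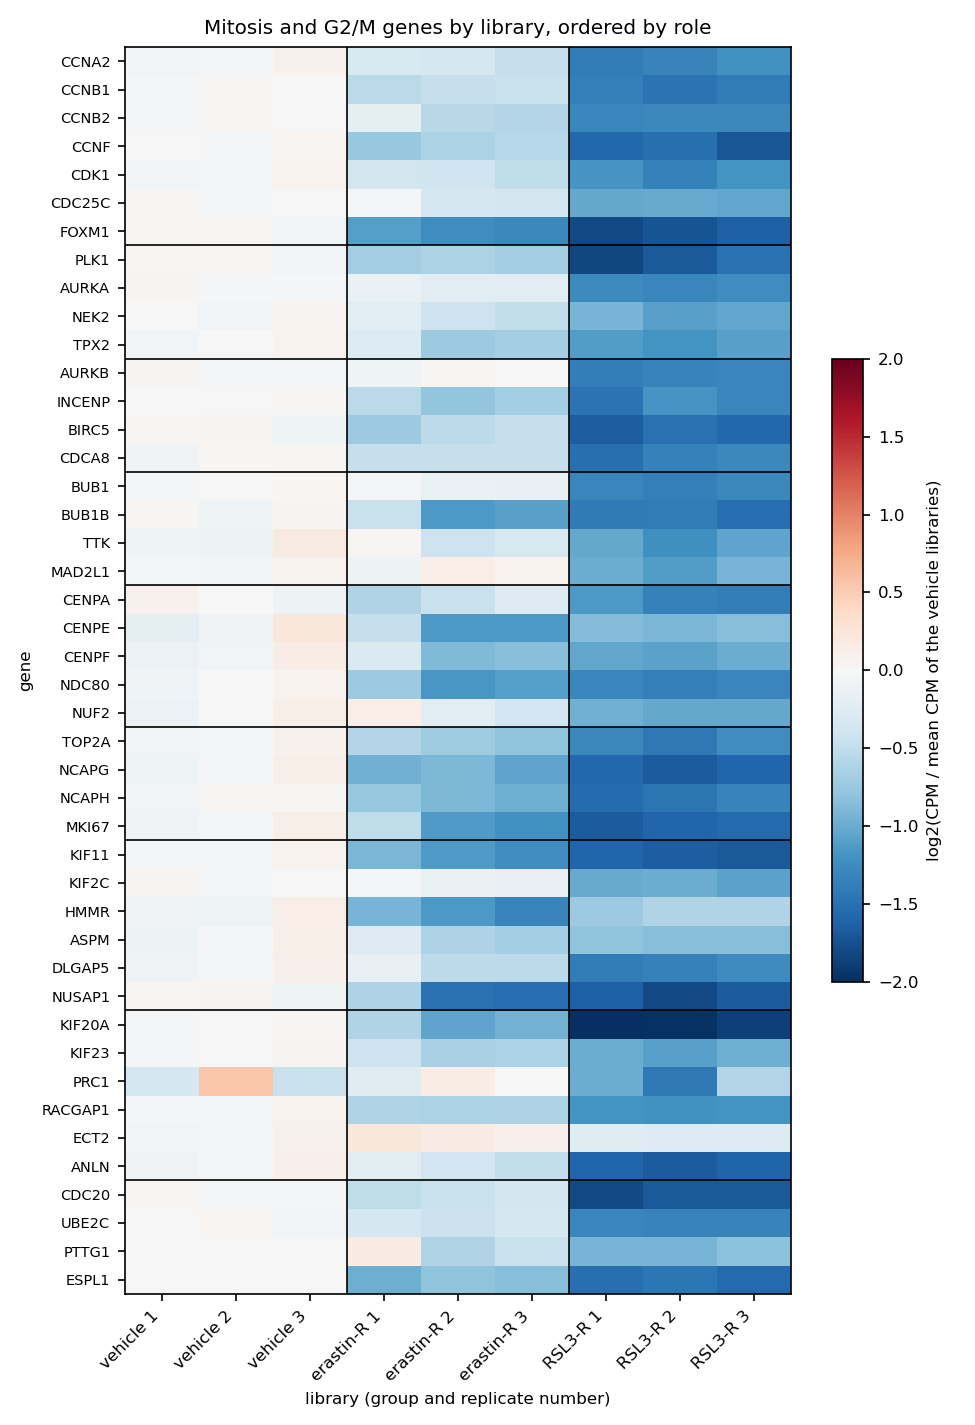
Level of each of the 44 genes (rows, in the order of their roles, separated by lines) in each of the 9 libraries (columns), as log2 of CPM over the mean CPM of the vehicle libraries; blue is lower and red is higher. The RSL3-R columns are blue throughout, with medians of -1.30, -1.34 and -1.28, and the erastin-R columns are paler, with medians of -0.43, -0.58 and -0.54.

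Transcripts for the driver of mitotic entry and for FOXM1 were lower under both drugs. CCNB1 (cyclin B1; ENSG00000134057; chromosome 5, 69167010 to 69178245 of GRCh38) had 320.3, 331 and 327 CPM in the vehicle libraries, 225, 237 and 238 CPM in the erastin-R libraries and 127, 117 and 123 CPM in the RSL3-R libraries. The groups did not overlap, and the RSL3-R libraries were the lowest. Its log2 fold change from edgeR, here and further on as value ± standard error, was -0.48 ± 0.06 (adjusted p = 6.56e-06) under erastin and -1.42 ± 0.06 (adjusted p = 2.73e-10) under RSL3. The kinase it activates, CDK1 (ENSG00000170312; chromosome 10, 60778331 to 60794852), had 199.8, 204 and 216 CPM in the vehicle libraries, 160.3, 157 and 146 CPM in the erastin-R libraries and 91.0, 80.7 and 90.4 CPM in the RSL3-R libraries. The order of the groups was the same, without overlap. For CDK1 the log2 fold change was -0.42 ± 0.07 (adjusted p = 9.73e-05) under erastin and -1.24 ± 0.07 (adjusted p = 4.38e-09) under RSL3. FOXM1, the transcription factor that drives many G2/M genes (ENSG00000111206; chromosome 12, 2857681 to 2877155), had 198, 199 and 186 CPM in the vehicle libraries, 90.9, 82.6 and 79.4 CPM in the erastin-R libraries and 55.4, 58.7 and 62.7 CPM in the RSL3-R libraries. The erastin-R libraries lay nearer to the RSL3-R than to the vehicle libraries, with no overlap between groups. Its log2 fold change was -1.20 ± 0.07 (adjusted p = 1.19e-08) in erastin-R cells, the largest among the 44 genes in that comparison, and -1.72 ± 0.07 (adjusted p = 3.85e-10) in RSL3-R cells. Without erastin-R replicate 1, NUSAP1 had the larger fall in erastin-R cells, at -1.52 ± 0.11, with FOXM1 at -1.26 ± 0.06. Of the exon bases of FOXM1, 15.9% lie under ITFG2 on the opposite strand, and the sources used here do not state whether the counting used strand. The other cyclins fell too, and pairs of values are given from here with erastin-R first and RSL3-R second. CCNA2 (cyclin A2) had log2 fold changes of -0.37 under erastin and -1.31 under RSL3, CCNB2 (cyclin B2) of -0.43 and -1.29, and CCNF (cyclin F, a substrate adaptor of a ubiquitin ligase) of -0.65 and -1.59, all called lower. EXOSC9, on the opposite strand with 506 to 878 counts, covers 9.08% of the exon bases of CCNA2, which had 951 to 2804 counts. CDC25C, the phosphatase that activates CDK1, fell by 1.02 on the log2 scale under RSL3. Its value in erastin-R cells was -0.23 (adjusted p = 0.0523, 0.000791 to 0.197 over the 16 alternatives), with replicate 1 at 33.0 CPM inside the vehicle range and the others at 26.7 and 26.0 CPM below it. Without replicate 1 it was -0.35 ± 0.08 (adjusted p = 0.000791). FAM53C, on the opposite strand, covers 8.78% of the exon bases of CDC25C. It held 1243 to 1534 counts per library, against 257 to 571 for CDC25C.

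Of the kinases that act on centrosomes and spindle, PLK1, which triggers mitotic entry and centrosome maturation (ENSG00000166851; chromosome 16, 23677656 to 23690367), had 143, 142 and 135 CPM in the vehicle libraries, 85.9, 89.9 and 87.8 CPM in the erastin-R libraries and 39.7, 43.7 and 49.9 CPM in the RSL3-R libraries. The 3 groups were fully apart, with the RSL3-R libraries the lowest. PLK1 had a log2 fold change of -0.67 ± 0.07 (adjusted p = 5.15e-06) under erastin and -1.65 ± 0.08 (adjusted p = 1.28e-09) under RSL3. AURKA (Aurora A, for spindle poles) changed little with erastin and much with RSL3, from 232 ± 7.61 CPM (SD, n = 3) in vehicle to 205 ± 6.55 CPM in erastin-R and 95.6 ± 1.96 CPM in RSL3-R libraries. It was called lower in both, with log2 fold changes of -0.18 (adjusted p = 0.0133) and -1.28. The erastin-R call was lost without vehicle replicate 1 (adjusted p = 0.0586, the highest of the 16 alternatives, which reached down to 0.000366). TPX2, which activates Aurora A and nucleates spindle microtubules, fell by 0.55 and 1.13 on the log2 scale, and NEK2, a kinase that splits the centrosomes, by 0.37 and 1.02.

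The chromosomal passenger complex, which corrects faulty attachments and guides cytokinesis, was uneven in erastin-R cells. Its kinase AURKB (Aurora B; ENSG00000178999; chromosome 17, 8204733 to 8210600) had 114, 108 and 109 CPM in the vehicle libraries, 105, 113 and 111 CPM in the erastin-R libraries and 42.4, 43.9 and 44.8 CPM in the RSL3-R libraries. The erastin-R and vehicle libraries overlapped, while the RSL3-R libraries lay far below both. The log2 fold change of AURKB was -0.01 ± 0.06 (adjusted p = 0.867) under erastin and -1.34 ± 0.06 (adjusted p = 1.24e-09) under RSL3. Without erastin-R replicate 1 the first was 0.02 ± 0.05 (adjusted p = 0.804). Its partners were called lower under both drugs. INCENP, the scaffold, had log2 fold changes of -0.66 and -1.31, BIRC5 (survivin) of -0.56 and -1.57, and CDCA8 (borealin) of -0.46 and -1.38.

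The spindle checkpoint, which delays anaphase until every chromosome is attached, had the median nearest to 0 of the 9 groups of roles in erastin-R cells. The median log2 fold change of its 4 genes was -0.17 there, -0.26 without erastin-R replicate 1, and -1.21 in RSL3-R cells. MAD2L1, the inhibitor of CDC20, was at 89.1 ± 3.92 CPM in vehicle and 91.3 ± 7.16 CPM in erastin-R libraries (SD, n = 3), and at 41.0 to 46.9 CPM in RSL3-R libraries. The kinase BUB1 was at 261 ± 6.38 CPM, 242 ± 10.7 CPM and 105 ± 3.07 CPM in vehicle, erastin-R and RSL3-R libraries. Neither was called in erastin-R cells (log2 fold changes of 0.04 and -0.11), and both were called lower under RSL3 (-1.01 and -1.32). Without erastin-R replicate 1, MAD2L1 was at 0.09 ± 0.06 (adjusted p = 0.189) in erastin-R cells, and BUB1, TTK, CDC25C, NUF2, KIF2C and PTTG1 were called lower there as well. With all libraries kept, BUB1, TTK and CDC25C were also called lower with upper-quartile and with quantile normalization. KIF2C was called lower with upper-quartile normalization, and TTK and PTTG1 with no count filter. The kinase TTK had values of -0.23 (adjusted p = 0.0988) and -1.10, the first becoming -0.37 ± 0.08 (adjusted p = 0.000166) without erastin-R replicate 1. BUB1B (BubR1) was called lower in both, with log2 fold changes of -0.85 and -1.45.

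Among the genes of centromere and kinetochore, the motor CENPE, which carries chromosomes to the spindle equator (ENSG00000138778; chromosome 4, 103105806 to 103198409), had 134, 144 and 177 CPM in the vehicle libraries, 110.0, 68.1 and 68.8 CPM in the erastin-R libraries and 83.1, 80.7 and 84.2 CPM in the RSL3-R libraries. Both treated groups lay below vehicle and overlapped each other, with erastin-R replicate 1 above and the other erastin-R libraries below the RSL3-R libraries. The log2 fold change of CENPE was -0.88 ± 0.15 (adjusted p = 0.000237) under erastin and -0.88 ± 0.15 (adjusted p = 0.00029) under RSL3. NDC80, which binds the ends of microtubules, fell by 0.99 under erastin and 1.32 under RSL3 on the log2 scale. Its partner in the same complex, NUF2, was not called in erastin-R cells (-0.15, adjusted p = 0.259) and was called lower in RSL3-R cells, from 104 ± 8.41 CPM (SD, n = 3) in vehicle to 51.7 ± 1.09 CPM. Erastin-R replicate 1 held 113 CPM of NUF2, against 88.2 and 79.1 CPM in the others, and without it NUF2 was called lower in erastin-R cells, at -0.31 ± 0.07 (adjusted p = 0.000184). CENPA, the histone that marks centromeres, had log2 fold changes of -0.43 and -1.29, and CENPF of -0.65 and -1.03, all called lower. SLC35F6, on the same strand with 399 to 643 counts, overlaps 6.96% of the exon bases of CENPA, which had 262 to 737 counts.

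The 4 genes of chromosome structure had the lowest medians of the 9 groups of roles at -0.89 under erastin and -1.52 under RSL3. MKI67, which coats mitotic chromosomes and is the Ki-67 antigen of tumour pathology (ENSG00000148773; chromosome 10, 128096659 to 128126385), had 704, 723 and 802 CPM in the vehicle libraries, 523, 338 and 321 CPM in the erastin-R libraries and 235, 247 and 254 CPM in the RSL3-R libraries. Erastin-R replicate 1 was well above the other erastin-R libraries, and the 3 groups still did not overlap. MKI67 had a log2 fold change of -0.92 ± 0.14 (adjusted p = 7.52e-05) under erastin and -1.60 ± 0.14 (adjusted p = 5.8e-07) under RSL3. TOP2A, the topoisomerase that untangles sister chromatids, held the most reads of the 44 genes. It went from 1155 ± 60.8 CPM (SD, n = 3) in vehicle to 712 ± 53.1 CPM in erastin-R and 464 ± 30.6 CPM in RSL3-R libraries, with log2 fold changes of -0.70 and -1.32. The subunits of condensin I were called lower too, NCAPG with -0.97 and -1.60 and NCAPH with -0.87 and -1.44. For NCAPG, 33.1% of the exon bases lie under LCORL on the opposite strand, so its counts are less certain.

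Spindle motors and microtubule-binding proteins held 3 of the 4 largest falls in erastin-R cells. HMMR, a spindle protein that is also a hyaluronan receptor (ENSG00000072571; chromosome 5, 163460203 to 163491945), had 19.4, 19.3 and 22.5 CPM in the vehicle libraries, 10.7, 9.16 and 8.21 CPM in the erastin-R libraries and 12.3, 13.5 and 13.4 CPM in the RSL3-R libraries. This gene was the only one of the 44 with every RSL3-R library above every erastin-R library, and both groups lay below vehicle. HMMR had a log2 fold change of -1.12 ± 0.12 (adjusted p = 3.11e-06) under erastin and -0.64 ± 0.12 (adjusted p = 0.000401) under RSL3. NUSAP1, which bundles spindle microtubules (ENSG00000137804; chromosome 15, 41332694 to 41381050), had 28.2, 28.9 and 26.0 CPM in the vehicle libraries, 18.1, 9.80 and 9.60 CPM in the erastin-R libraries and 8.96, 7.89 and 8.71 CPM in the RSL3-R libraries. Erastin-R replicate 1 was again the highest of its group, and the other erastin-R libraries lay close to the RSL3-R libraries. For NUSAP1 the log2 fold change was -1.14 ± 0.19 (adjusted p = 0.000147) under erastin and -1.70 ± 0.19 (adjusted p = 7.12e-06) under RSL3. A readthrough gene with 0 counts, AC087721.2, covers 62.2% of the exon bases of NUSAP1 on the same strand, and how reads that fit both were counted is not given in the sources used here. KIF11 (Eg5), the motor that pushes the spindle poles apart, fell by 1.09 under erastin and 1.64 under RSL3 on the log2 scale. KIF2C, a kinesin that shortens microtubules, was not called in erastin-R cells (-0.10) and fell by 1.02 in RSL3-R cells. ASPM, a spindle pole protein, had values of -0.51 and -0.84, and DLGAP5, which stabilises spindle microtubules, of -0.39 and -1.34, all called lower.

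The genes of midzone and cytokinesis spanned the widest range in RSL3-R cells. KIF20A (MKLP2), the kinesin that brings the passenger complex to the midzone (ENSG00000112984; chromosome 5, 138178719 to 138187715), had 203, 209 and 210.0 CPM in the vehicle libraries, 137, 99.8 and 108 CPM in the erastin-R libraries and 52.2, 52.6 and 57.2 CPM in the RSL3-R libraries. The groups were fully apart. Its log2 fold change was -0.85 ± 0.09 (adjusted p = 4.75e-06) under erastin and -1.94 ± 0.10 (adjusted p = 2.57e-09) under RSL3, the largest among the 44 genes there and a 3.84-fold lower level. Its promoter is the one shown above without an exact TTTGAA. BRD8, on the opposite strand with 1581 to 2700 counts, covers 3.34% of the exon bases of KIF20A. ECT2, the exchange factor that activates RhoA at the cell equator (ENSG00000114346; chromosome 3, 172750682 to 172821474), had 330.2, 335 and 363 CPM in the vehicle libraries, 399, 382 and 369 CPM in the erastin-R libraries and 288, 287 and 287 CPM in the RSL3-R libraries. The erastin-R libraries lay above and the RSL3-R libraries below the vehicle libraries. The log2 fold change of ECT2 was 0.16 ± 0.06 (adjusted p = 0.0259) under erastin and -0.25 ± 0.06 (adjusted p = 0.00218) under RSL3, the smallest of the 44 genes there. The higher call in erastin-R cells was kept in 9 of 16 alternatives (adjusted p = 0.00493 to 0.117), and was lost without vehicle replicate 1, vehicle replicate 2 or erastin-R replicate 2, each left out singly. RACGAP1, the partner that recruits ECT2, did not follow it and fell by 0.62 and 1.20 on the log2 scale. KIF23 (MKLP1), which forms a complex with RACGAP1, fell by 0.56 and 1.02. ANLN (anillin), a scaffold of the contractile ring, went from 663 ± 42.8 CPM (SD, n = 3) in vehicle to 515 ± 45.2 CPM in erastin-R and 217 ± 5.97 CPM in RSL3-R libraries.

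PRC1, which crosslinks midzone microtubules (ENSG00000198901; chromosome 15, 90966038 to 90995629), had only 13 to 52 counts per library, 1.73, 3.21 and 1.60 CPM in the vehicle libraries, 1.85, 2.42 and 2.19 CPM in the erastin-R libraries and 1.10, 0.808 and 1.46 CPM in the RSL3-R libraries. The vehicle and erastin-R libraries overlapped, and the RSL3-R libraries were the lowest. Its log2 fold change was -0.02 ± 0.30 (adjusted p = 0.959) under erastin, or 0.08 ± 0.32 (adjusted p = 0.849) without erastin-R replicate 1, and -0.95 ± 0.33 (adjusted p = 0.0281) under RSL3. The RSL3 value was not called without vehicle replicate 2, RSL3-R replicate 1 or RSL3-R replicate 2, each left out singly (adjusted p = 0.00929 to 0.186 over the 16 alternatives, with a value of -0.57 without vehicle replicate 2). A readthrough gene on the same strand, AC068831.7, shares exons with PRC1, and 58.4% of the exon bases of PRC1 lie within other genes. AC068831.7 held more reads than PRC1, 90 to 193 per library, and its log2 fold changes were 0.03 in erastin-R cells (adjusted p = 0.860) and -0.85 in RSL3-R cells (adjusted p = 0.000117). The low level listed for PRC1 is therefore uncertain.

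The anaphase-promoting complex marks securin and cyclin B for destruction, which frees separase to cut cohesin. Its activator CDC20 (ENSG00000117399; chromosome 1, 43358955 to 43363203) had 212, 204 and 203 CPM in the vehicle libraries, 145, 152 and 159 CPM in the erastin-R libraries and 59.2, 64.6 and 64.2 CPM in the RSL3-R libraries. The groups did not overlap, and the RSL3-R libraries were far below both others. CDC20 had a log2 fold change of -0.44 ± 0.06 (adjusted p = 3.1e-05) under erastin and -1.72 ± 0.06 (adjusted p = 1.3e-10) under RSL3, the third largest there after KIF20A and FOXM1. UBE2C, the ubiquitin-conjugating enzyme of the complex, fell by 0.37 and 1.33 on the log2 scale, while ESPL1 (separase) went from 143 ± 1.14 CPM (SD, n = 3) in vehicle to 77.9 ± 4.51 CPM in erastin-R and 50.6 ± 1.87 CPM in RSL3-R libraries. PTTG1 (securin) was spread in the erastin-R libraries, at 149, 87.4 and 97.1 CPM against 131, 133 and 133 CPM in vehicle. Replicate 1 was above and the others below the vehicle range. It was not called in erastin-R cells (-0.25, adjusted p = 0.143, 5.50e-09 to 0.509 over the 16 alternatives), was called lower without replicate 1 at -0.52 ± 0.06 (adjusted p = 5.5e-09), and fell by 0.89 on the log2 scale in RSL3-R cells.

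**Figure D3:**
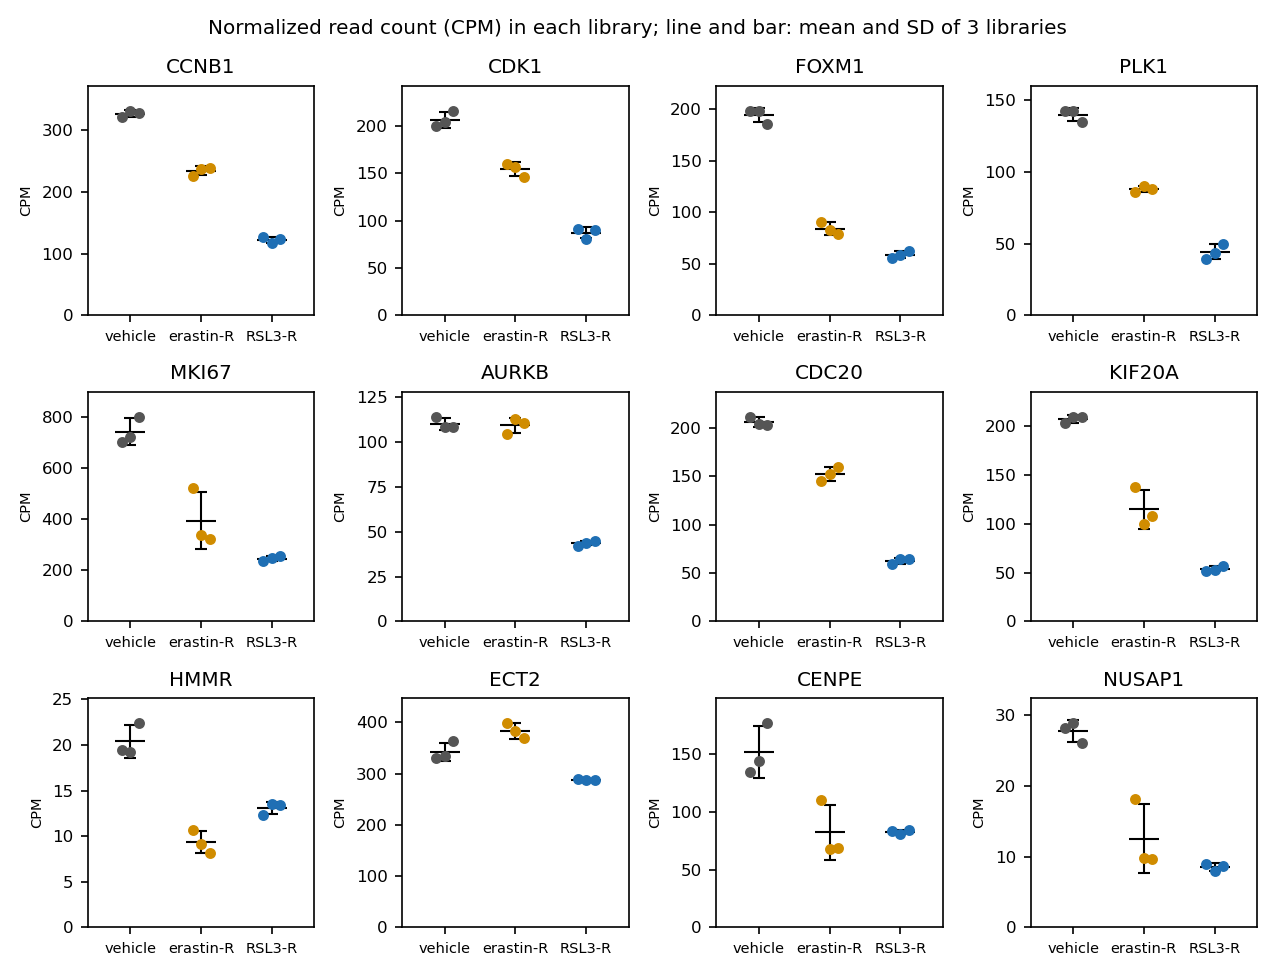
Normalised read count (CPM, y axis from 0) of 12 of the genes in the 3 libraries of each group, one point per library, with the mean and SD. The points of AURKB overlap between vehicle and erastin-R libraries and lie lower in RSL3-R libraries, HMMR is lowest in erastin-R libraries, and ECT2 is highest there.

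**Figure D4:**
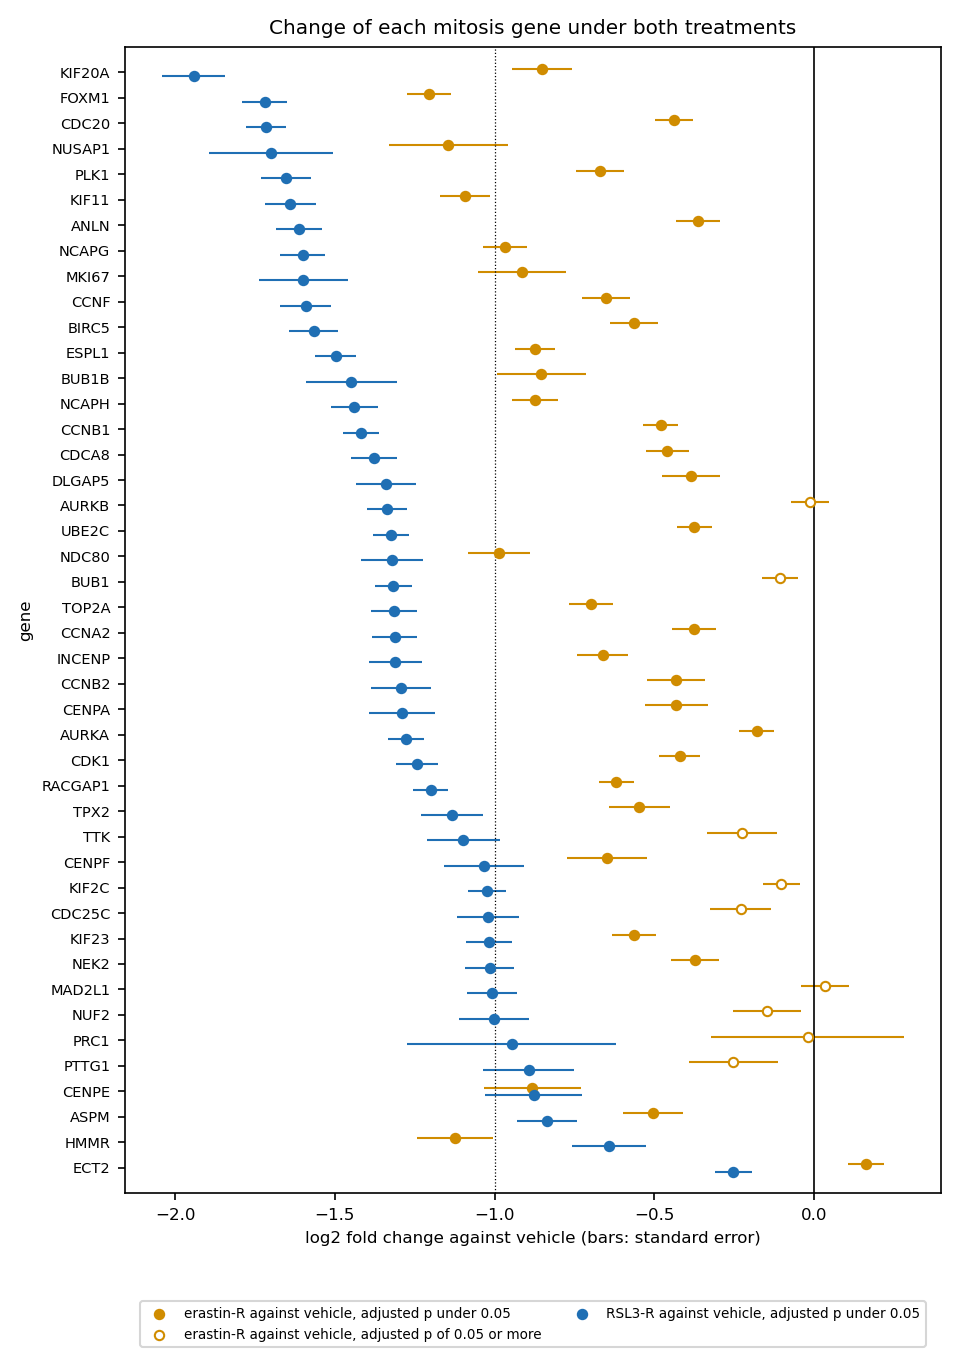
Log2 fold change against vehicle (x axis, bars show the standard error) of each gene in erastin-R (orange) and RSL3-R cells (blue), ordered by the RSL3-R value; open points were not called. RSL3-R values run from -1.94 for KIF20A to -0.25 for ECT2, and the dotted line marks -1.

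The treatments were also compared directly, which does not use the vehicle libraries for the difference. Between RSL3-R and erastin-R cells 42 genes were called lower in RSL3-R cells (26.9% of all genes tested), 1 was called higher (22.3%) and CENPE was not called. All 3 RSL3-R libraries lay below the erastin-R libraries for 42 genes (29.5% of all genes). A log2 difference of -1 or lower was reached by 8 genes (3.48% of all genes), and the median over the 44 was -0.81, against -0.02 over all genes tested. With upper-quartile normalization, 37 were called lower and the median was -0.71, and the calls over all genes went from 4354 lower and 3615 higher to 3235 lower and 4642 higher.

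AURKB had the largest difference, -1.32 ± 0.06 (adjusted p = 3.1e-09). CDC20 followed with -1.28 ± 0.06 (adjusted p = 3.7e-09), and ANLN (ENSG00000011426; chromosome 7, 36389806 to 36453791) with -1.25 ± 0.07 (adjusted p = 1.66e-08). ANLN had 629.6, 647 and 711 CPM in the vehicle libraries, 563, 509 and 473 CPM in the erastin-R libraries and 221, 210.0 and 219 CPM in the RSL3-R libraries, with no overlap between groups. The checkpoint genes BUB1 (-1.21) and MAD2L1 (-1.04), which were not called in erastin-R cells, also differed by more than 1 on the log2 scale. For the central genes the differences were -0.94 for CCNB1, -0.82 for CDK1, -0.98 for PLK1, -0.68 for MKI67 and -0.52 for FOXM1, all called. HMMR was the one called higher in RSL3-R cells, with 0.48 ± 0.12 (adjusted p = 0.00486). At the small end ASPM, which had 281, 296 and 327 CPM in the vehicle libraries, 252, 197 and 189 CPM in the erastin-R libraries and 173, 167 and 166 CPM in the RSL3-R libraries, differed by -0.33 ± 0.09 (adjusted p = 0.00983). Its RSL3-R libraries all lay below its erastin-R libraries. This call was lost without RSL3-R replicate 3 (adjusted p = 0.0613, the highest of the 16 alternatives, which reached down to 1.80e-05) and with upper-quartile normalization (adjusted p = 0.0590). Without erastin-R replicate 1 ASPM differed by -0.19 ± 0.05 (adjusted p = 0.00302). CENPE had 0.01 ± 0.15 (adjusted p = 0.982). Without erastin-R replicate 1, CENPE was 0.27 higher in RSL3-R cells on the log2 scale (adjusted p = 0.00470, the lowest of the 16 alternatives). NUSAP1 differed by -0.56 (adjusted p = 0.0345), and by -0.19 without erastin-R replicate 1 (adjusted p = 0.206, the highest of the 16 alternatives, which reached down to 0.000287). NUSAP1 was not called either without each RSL3-R library in turn, with upper-quartile normalization or with only the 2 groups compared. The differences of MKI67, BUB1B, CENPF, NDC80 and PTTG1 were also smaller without erastin-R replicate 1 and still called. They went from -0.68 to -0.43 for MKI67, from -0.59 to -0.34 for BUB1B and from -0.39 to -0.17 for CENPF. For NDC80 the change was from -0.34 to -0.19 and for PTTG1 from -0.64 to -0.37. MKI67, BUB1B and PTTG1 kept the call in all 16 alternatives. CENPF kept it in 11 (highest adjusted p = 0.0830) and NDC80 in 12 (highest adjusted p = 0.0990). PRC1, which differed by -0.93 (adjusted p = 0.0312), kept its call in 11 (highest adjusted p = 0.117).

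Levels were compared between genes by FPKM, which the authors scaled by gene length. In vehicle cells UBE2C was the highest, with 202 ± 6.31 FPKM (SD, n = 3), followed by TOP2A with 178 ± 9.71, TPX2 with 155, CCNB1 with 126, ANLN with 109 and CDC20 with 100.1 FPKM. These 6 did not overlap with their neighbours in the order. Further down, neighbours were mostly not separated, and over the whole order 29 of 43 neighbouring pairs overlapped in range. The lowest were NUSAP1 with 9.54, HMMR with 5.13 and PRC1 with 0.391 FPKM. The levels of NUSAP1 and PRC1 are uncertain, since both share much of their exon bases with readthrough genes. The median of the 44 genes was 39.0 FPKM, against 4.09 FPKM over all genes tested. The median coefficient of variation between replicates was 4.14% in vehicle, 9.15% in erastin-R and 4.13% in RSL3-R libraries. All genes with a mean CPM of at least that of PRC1, the lowest of the 44, had 6.22%, 10.2% and 5.62%. The erastin-R libraries thus had the widest spread in that set too. It reaches down to far lower levels than most of the 44 genes, so the sizes are not matched for level.

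Other genes of the cell cycle were counted from lists of known members by the same test, and lower or higher means called so. Of all genes tested, 26.8% were lower and 27.1% higher under erastin, and 24.9% and 23.8% under RSL3. Of 32 other genes of kinesins, spindle and cytokinesis, 27 were called lower and 2 higher in erastin-R cells, and 32 were called lower in RSL3-R cells. FAM83D, which recruits a kinase to the spindle, had the largest change of that list under RSL3, a log2 fold change of -1.81 (edgeR, adjusted p = 3.06e-10). Of 30 other genes of kinetochore and centromere, 24 were lower and 3 higher in erastin-R cells, and 27 lower and 1 higher in RSL3-R cells. There CENPM had the largest change, -1.82, and ZWINT fell by 1.31 and 1.67 on the log2 scale. Of 18 genes of condensin and cohesin, 11 were called lower under erastin and 13 under RSL3. ESCO2, the acetyltransferase that locks cohesin, fell by 1.69 and 1.35 on the log2 scale.

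Genes of G1/S and replication were called lower throughout, 25 of 25 under each drug, with medians of -0.80 and -1.22. CCNE2 (cyclin E2) fell by 2.09 and 2.14 on the log2 scale in that order. Between the treatments, the median of this list was -0.18, with 13 of the 25 genes lower and 3 higher in RSL3-R cells. The 44 mitosis genes had a median of -0.81 there. In that comparison 26.9% of all genes tested were called lower and 22.3% higher, with a median of -0.02. Of 17 genes of the DREAM and MYBL2-MuvB complexes and their E2F partners, 8 were lower and 2 higher under erastin (47.1% and 11.8%) and 10 lower and 4 higher under RSL3 (58.8% and 23.5%), the last being near the share of all genes. MYBL2 fell by 1.59 and 1.83 on the log2 scale, and RBL1, which encodes the p107 pocket protein, by 1.62 and 1.03. Subunits and regulators of the anaphase-promoting complex (17 genes) were 5 lower and 8 higher under erastin (29.4% and 47.1%) and 10 lower and 2 higher under RSL3 (58.8% and 11.8%), so the share of them lower under erastin was near that of all genes. FBXO5 (EMI1), its inhibitor, fell by 0.92 and 1.27. Regulators of CDK1 (15 genes) were 6 lower and 5 higher under erastin (40.0% and 33.3%) and 10 lower and 2 higher under RSL3 (66.7% and 13.3%), with CDC25A, an activating phosphatase, lower by 0.88 and 1.74 on the log2 scale. Genes of G2 arrest and CDK inhibition (11 tested of 13) were 2 lower and 5 higher under erastin (18.2% and 45.5%) and 3 lower and 3 higher under RSL3 (27.3% each), both near the shares of all genes under RSL3. GADD45A, a stress gene that inhibits CDK1, rose by 1.01 and 0.83, and SFN (14-3-3 sigma), which holds CDK1 in the cytoplasm, fell by 1.47 and 1.22 on the log2 scale. CDKN1C, which encodes the inhibitor p57, rose by 1.93 in erastin-R cells. It was called lower in RSL3-R than in erastin-R cells, with a log2 fold change of -1.41 (edgeR, adjusted p = 5.44e-05).

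**Figure D5:**
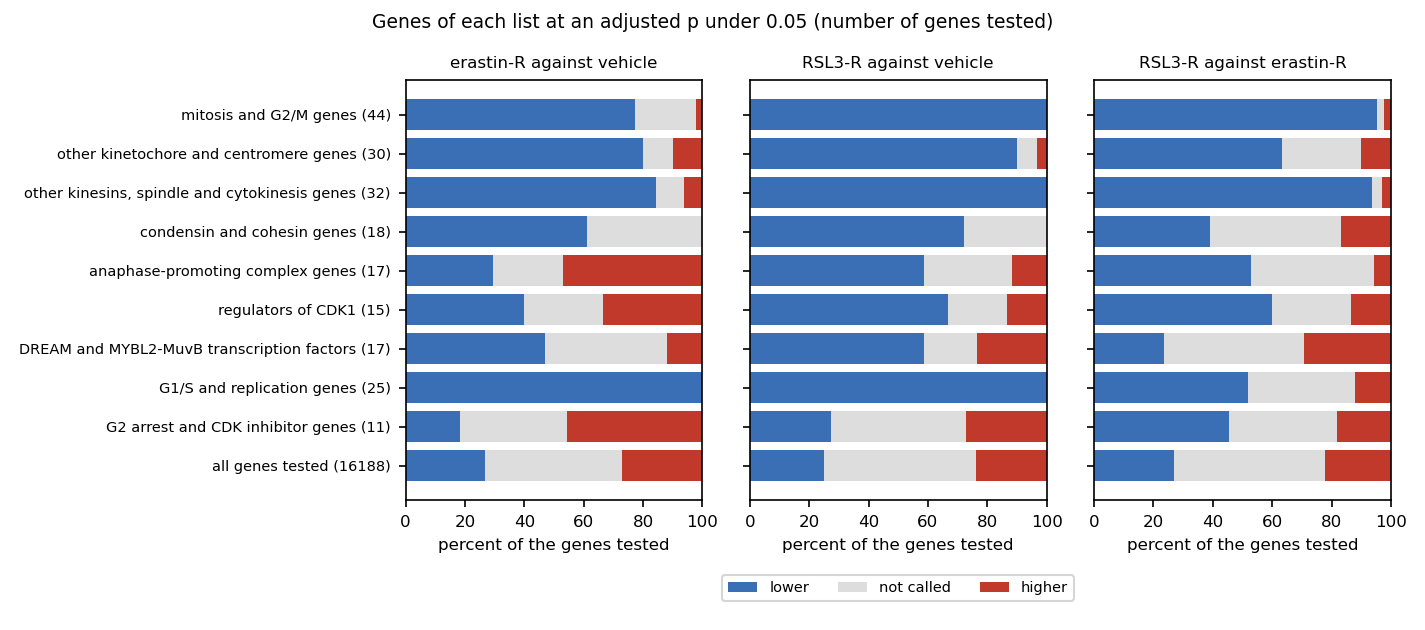
Percent of the genes tested in each list (x axis) that were called lower (blue), higher (red) or not called (grey) in each comparison, with the number tested in brackets. The mitosis and G2/M genes were 34, 44 and 42 of 44 lower in the 3 comparisons from left to right, and the bottom bar gives all 16188 genes.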

How the data were processed

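Per the methods of the study, mRNA was selected with oligo(dT) from total RNA of MDA-MB-231 and sequenced, 3 libraries each for vehicle, erastin-R and RSL3-R, grouped by the treatment in the labels. The labels do not say that the 3 libraries of a group came from separate cultures, so p-values measure only the spread between these libraries, which may be technical. Per the submitters' processing notes, HISAT2 2.0.5 and featureCounts 1.5.0-p3 were used. The strand setting and the treatment of reads that fit several genes are not given in the sources used here. The authors deposited, per library and gene, a raw count without normalization and an FPKM value, the count scaled by library size and gene length. All 58735 gene identifiers and their coordinates matched GENCODE release 29 (GRCh38), which was used to find overlapping exons of the 44 genes. Not every overlap of the 44 genes is named above. Of the exon bases of PLK1, CCNF and BUB1B, 12.5%, 11.8% and 10.2% also lie within other genes. The gene with the largest overlap held at most 7, 7 and 1 counts per library in that order. Overlaps of genes outside the 44 were not examined.

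The counts were tested by the quasi-likelihood method of edgeR 4.0.16 in R 4.3.3 (TMM, filterByExpr, 1 model of all 9 libraries with a mean per group and no covariate) over 16188 genes, and all 44 genes passed the filter. Benjamini-Hochberg adjustment covered all genes tested. Over all genes edgeR estimated 8.56% as the coefficient of variation between replicates. A standard error is the absolute log2 fold change divided by the square root of F. Total counts of 15405102 to 17273464 left at least 127 counts in every library for each of the 44 genes but PRC1, which had 13 to 52. The test was tried on simulated counts with known changes before use.

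Levels and statistics in every library are given for CCNB1, CDK1, FOXM1, PLK1 and MKI67 and, in each comparison, for the 3 genes with the largest and the 2 with the smallest absolute log2 fold change. For the other lists at most 3 genes, those with the largest absolute change among genes called, are named, in part also with their value in another comparison. The genes, lists and rules were chosen with earlier results of these data known. Alternative settings comprised no count filter, DESeq2 1.42.0, total counts without TMM, upper-quartile normalization, quantile normalization with limma 3.58.1, only the 2 groups compared, the replicate number as a block, and each library left out in turn, 16 in all. Counts past a log2 fold change of 1 under these alternatives were added after seeing the data. Figures and promoter searches used Python 3.11.15, pandas 2.3.3 and matplotlib 3.10.9.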

Additional observations from a re-analysis of the deposited data

How the results depend on the processing

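Over the 16 alternatives, 33 to 40 of the 44 genes were called lower in erastin-R cells (34 in the analysis as reported), 43 or 44 in RSL3-R cells and 37 to 42 in the direct comparison (42). Of 720 values computed for 15 named genes under the alternatives, 686 kept direction and call, 10 stayed uncalled with the opposite sign, 23 kept direction and lost the call, 1 gained it and 0 changed sign past the threshold. The higher call of ECT2 in erastin-R cells was the least stable. The count of genes called higher there was 0 with no filter, with upper-quartile normalization, with only the 2 groups compared and with the replicate block, and 0 to 1 with a library left out. In erastin-R cells the count past 1 on the log2 scale was 3 to 9 with a library left out, 9 without erastin-R replicate 1. In the direct comparison that count was 4 with upper-quartile normalization, and the number called higher was 1 to 2 with a library left out. The median log2 fold change in RSL3-R cells was -1.26 with quantile normalization. The direct median was -0.71 with upper-quartile normalization and -0.84 to -0.69 with a library left out, -0.69 without erastin-R replicate 1. The cause of these shifts was not tested.

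Libraries with the same replicate number did not deviate together (mean correlation of deviations -0.0049 over 9 pairs, against 0.0026 over 18 pairs with different numbers), so the numbers were not taken to pair libraries. The replicate block took ECT2 from an adjusted p of 0.0259 to 0.0530 in erastin-R cells and changed no other call among the named genes. PRC1 had the fewest counts of the 44 genes, 13 to 52 per library.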
